A study of Mus musculus with 9 samples.

Results

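A set of 9 genes that mark naive T cells was followed through a mouse RNA-seq series on hypochlorous acid (HOCl), the oxidant that neutrophils make with myeloperoxidase. They were the homing and egress receptors Ccr7 and S1pr1, the cytokine receptor Il7r, and the transcription factors Klf2, Tcf7, Lef1, Foxo1, Foxp1 and Bach2. They were taken as a list of 9 symbols, with no threshold on their values, and all 9 were found among the 54838 genes counted. The libraries were 1 of CD8+ T cells held for 5 h in medium with 600 µM HOCl, 2 of untreated CD8+ T cells, 3 of B16F10 cells with 600 µM HOCl and 3 of untreated B16F10 cells. The T cells came from spleens of adult C57BL/6 mice through a CD8a+ isolation kit, with no sort for naive cells named, and B16F10 is a melanoma line that derives from C57BL/6 mice. RNA was total RNA from a column kit. Nothing says that libraries of a group came from separate cultures or mice, so the p-values below cover only how far these particular libraries scatter, and that scatter may be technical.

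A naive T cell lives in a resting state and recirculates. CCR7 lets it enter lymph nodes along the chemokines CCL19 and CCL21, S1PR1 lets it leave again toward the sphingosine 1-phosphate of lymph and blood, and the interleukin-7 receptor gives it the survival signal it needs meanwhile. FOXO1 and KLF2 are known to drive genes of this programme, TCF1 (the product of Tcf7) and LEF1 hold naive and memory identity, FOXP1 keeps the cell quiescent and BACH2 restrains effector differentiation. After antigen stimulation most of these transcripts are known to decline.

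The depth was 12847418 counts in the T cell HOCl library, 49934172 and 52087754 in the untreated T cell libraries, 48995183 to 52587378 in B16F10 HOCl and 45895352 to 61347337 in B16F10 untreated. A pair of libraries stood apart. In the T cell HOCl library 37.4% of counts were mitochondrially encoded, against 1.55% and 2.11% in the untreated T cell libraries, and 44225 genes had a count, against 22855 to 25907 in the other 8 libraries. It also held 9 melanocyte genes at 25% to 30.9% of their mean in untreated B16F10 (median 27.2%), whereas the untreated T cell libraries had medians of 0.313% and 0.0667%. The other was B16F10 HOCl replicate 3, which held 191 T-type genes (at least 50 CPM, the counts of a gene per 1000000 counts of its library, in both untreated T cell libraries, at most 1 CPM in each untreated B16F10 library, members left out) at a median 0.749% of their level in T cells, where the remaining 5 B16F10 libraries had 0.0773% to 0.0979%. Results that rest on either library are given beside these values. In bulk RNA, fewer cells of a type and less RNA per cell cannot be told apart.

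The T cell label was checked against its defining markers. Cd8a stood at 69.2 CPM in the T cell HOCl library, against 452 and 359 CPM in the untreated T cell libraries. Cd4 was at 7.08 CPM in the HOCl library, against 0.0401 and 0.192 CPM in the untreated ones. Cd44, which is high on memory and effector cells, was at 164 CPM with HOCl, against 69.5 and 45.5 CPM without. Untreated B16F10 averaged 529 CPM of Cd44, and the HOCl library held melanocyte genes at a median 27.2% of their B16F10 level. The part of B16F10 RNA in that Cd44 level was not tested. The B cell transcript Ighm reached 280 CPM in the HOCl library, against 1242 and 2332 CPM in the untreated libraries.

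Promoter windows were read for the members, because the factors among them are known to bind DNA and the members were low together in 1 library. RefSeq windows of 300 bases (250 before to 50 after an annotated start, build GRCm38.p6, gene strand) were found for 7 of the 9 members, 13 windows in all. Ccr7 and S1pr1 had no entry. The 4 windows shown include 1 of Tcf7, the member highest per length in T cells (chr11:52282546-52282845, minus strand), and 1 of Lef1 (chr3:131156044-131156343, plus strand). Both have an internal start of the gene. The others are of Il7r (chr15:9529827-9530126, minus strand) and Klf2 (chr8:72318812-72319111, plus strand), which held none of the motifs searched. For Tcf7 and Lef1, the window of the gene with the most matches is shown. The other Tcf7 window (chr11:52282965-52283264) and the Lef1 windows chr3:131110047-131110346 and chr3:131110073-131110372 held no match. Capitals mark motif matches on either strand.
Tcf7: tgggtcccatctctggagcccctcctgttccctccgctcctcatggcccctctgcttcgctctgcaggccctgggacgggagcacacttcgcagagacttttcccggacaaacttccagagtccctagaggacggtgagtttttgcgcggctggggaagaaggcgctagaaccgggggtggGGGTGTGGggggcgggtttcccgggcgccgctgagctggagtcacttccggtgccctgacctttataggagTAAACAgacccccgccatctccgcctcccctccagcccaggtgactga
Lef1: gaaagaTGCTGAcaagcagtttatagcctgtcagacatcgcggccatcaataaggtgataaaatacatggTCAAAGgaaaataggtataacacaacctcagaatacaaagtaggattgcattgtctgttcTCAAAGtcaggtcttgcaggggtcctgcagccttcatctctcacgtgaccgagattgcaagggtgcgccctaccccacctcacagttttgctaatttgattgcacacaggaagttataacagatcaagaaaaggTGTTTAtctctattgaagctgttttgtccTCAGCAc
Il7r: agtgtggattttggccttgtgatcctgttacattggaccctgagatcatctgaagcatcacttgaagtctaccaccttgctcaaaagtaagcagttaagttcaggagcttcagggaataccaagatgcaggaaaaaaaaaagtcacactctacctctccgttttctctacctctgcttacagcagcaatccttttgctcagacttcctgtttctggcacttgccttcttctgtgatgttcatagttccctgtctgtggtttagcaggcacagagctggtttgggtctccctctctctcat
Klf2: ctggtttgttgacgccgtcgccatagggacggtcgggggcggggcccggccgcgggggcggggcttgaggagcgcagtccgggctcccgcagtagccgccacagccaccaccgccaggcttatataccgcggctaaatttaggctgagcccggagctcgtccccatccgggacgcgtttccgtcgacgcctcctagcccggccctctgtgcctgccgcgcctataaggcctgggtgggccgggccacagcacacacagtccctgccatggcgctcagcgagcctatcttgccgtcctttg

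The motif letters searched were TAAACA for forkhead factors (the family of FOXO1 and FOXP1), CTTTGA for TCF/LEF, CCACACCC for KLF and TGCTGA for the core of a BACH/MAF element, each on both strands. No matches overlapped in the member windows. TAAACA was in 5 of the 13 member windows (in Tcf7, Lef1 and Foxp1), and in 13.4% of all 32851 windows. CTTTGA was in 3 windows (Lef1, Foxp1 and Bach2), against 16% of all windows. TGCTGA was in 4 (Lef1 and Foxp1), against 19.5%, and CCACACCC was in 1 (Tcf7), against 3.56%. The Tcf7 window above carries the KLF letters and, close to its start, the forkhead letters. Base makeup differed between the windows: the Klf2 window had 69.3% GC and 32 CG pairs and the Il7r window 45.7% GC and 1 CG pair, with medians of 52.7% and 7 over all windows. Such matches describe the letters in these windows and nothing about binding.

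The 9 transcripts were abundant in untreated T cells. Per length (RPKM, the CPM divided by the exon length in kilobases), the order was Tcf7 at 689, Klf2 at 407, Ccr7 at 393, Il7r at 331, S1pr1 at 181, Lef1 at 73.8, Foxp1 at 28.3, Bach2 at 26.4 and Foxo1 at 18.7 RPKM. The ranges over the 2 libraries overlapped for Klf2 and Ccr7, for Ccr7 and Il7r, and for Foxp1 and Bach2, and not for the other neighbours. Tcf7 ranked 61 of 21921 protein-coding genes by this measure and S1pr1 159, whereas Foxo1 ranked 2523. The 3 receptors, Tcf7 and Klf2 thus stood far above the forkhead genes in transcript level.

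The untreated T cell libraries lay within 2-fold of each other for every member. Ccr7 had 962 CPM in replicate 2 and 593 CPM in replicate 1, a log2 ratio of 0.70, and Bach2 had 210 CPM in replicate 2 and 315 CPM in replicate 1, a log2 ratio of -0.59. Il7r was nearly level, at 1552 and 1532 CPM. Thus 0 of 9 members were 2-fold apart, where 20.6% of the 11524 genes with at least 1 CPM in both libraries were. The median size of the log2 ratio was 0.26 over the members and 0.53 over those genes. In replicate 2, 5 members were higher, and 6 after trimmed-mean (TMM) scaling, where Foxo1 changed sign. The source code of replicate 2 has another prefix than that of the other 8 libraries, and what that prefix stands for was not given in the labels.

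**Figure D1:**
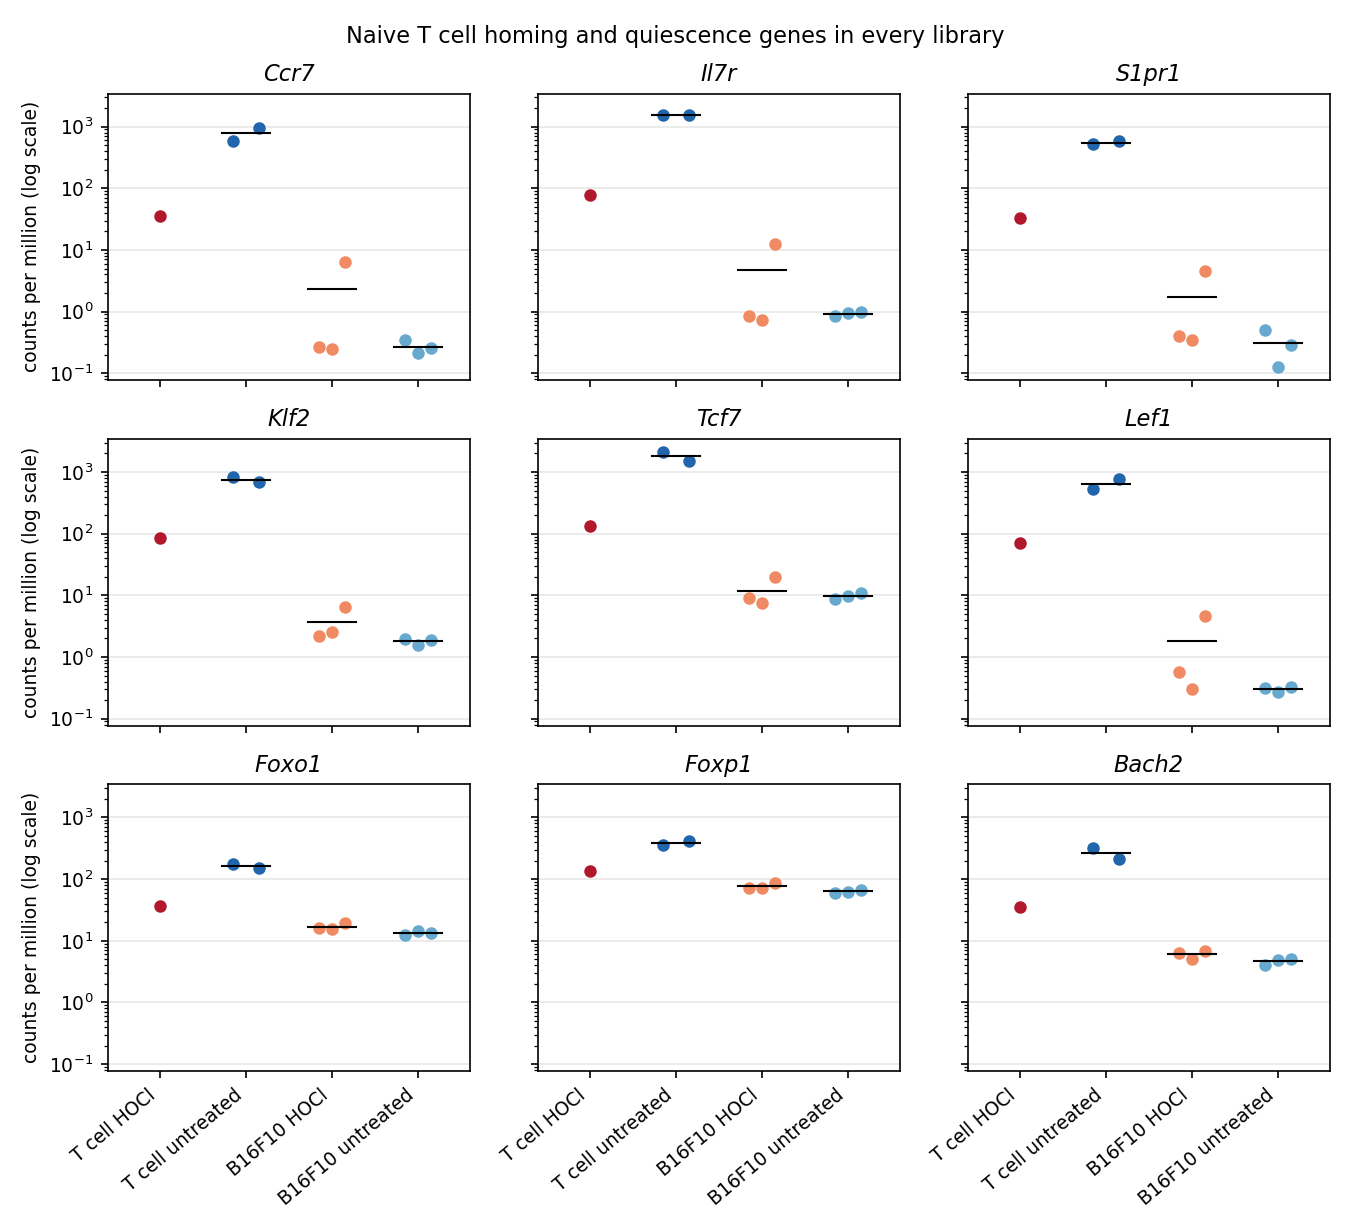
CPM (log axis) of the 9 genes in each library, a point per library, with a bar at the mean where a group has more than 1 library. The T cell HOCl library lies below both untreated T cell libraries and above all B16F10 libraries for every gene, and B16F10 HOCl replicate 3 lies above the other 2 HOCl libraries, with the largest ratio for Ccr7 (6.35 CPM, against 0.265 and 0.247 CPM).

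With HOCl, every member was lower in the single T cell library than in both untreated T cell libraries, by at least 2-fold. The group has 1 library, so this is a description with no test. Of the 11524 genes with at least 1 CPM in both untreated libraries, 23.7% met the same rule and 14.7% were at least 2-fold higher. The median log2 ratio was -3.21 over the members and -0.42 over all those genes. The summed level of the 9 members was 643 CPM in the HOCl library, against 6947 and 6839 CPM in the untreated ones.

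The trafficking and cytokine receptors were lowest relative to untreated cells. Ccr7, the lymph node entry receptor (ENSMUSG00000037944, chr11:99144196-99155077, minus strand, GRCm38), had 35.3 CPM with HOCl, against 593 and 962 CPM without, 22.0-fold lower than their mean. S1pr1, the egress receptor (ENSMUSG00000045092, chr3:115710433-115715072, minus strand), had 32.7 CPM with HOCl, against 513 and 589 CPM, 16.9-fold lower. Il7r, the interleukin-7 receptor alpha chain (ENSMUSG00000003882, chr15:9505788-9530176, minus strand), had 76.5 CPM with HOCl, against 1532 and 1552 CPM, 20.2-fold lower. These levels were 4.54% to 5.93% of the untreated mean.

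The factors of naive identity came next. Klf2, the zinc finger factor that activates S1pr1 (ENSMUSG00000055148, chr8:72319033-72321656, plus strand), had 86.6 CPM with HOCl, against 818 and 685 CPM without, 8.67-fold lower. Tcf7, which encodes TCF1 (ENSMUSG00000000782, chr11:52252371-52283014, minus strand), had 133 CPM with HOCl, against 2117 and 1503 CPM, 13.6-fold lower. Lef1, its relative (ENSMUSG00000027985, chr3:131110471-131224356, plus strand), had 69.7 CPM with HOCl, against 531 and 767 CPM, 9.31-fold lower. For these 3 genes the distance to the nearer untreated library was far larger than that between the untreated libraries.

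The remaining regulators were nearest to their untreated level. Bach2, a repressor of effector genes (ENSMUSG00000040270, chr4:32238804-32586108, plus strand), had 34.9 CPM with HOCl, against 315 and 210 CPM without, 7.52-fold lower. Foxo1, an activator of Il7r and Klf2 (ENSMUSG00000044167, chr3:52268336-52353221, plus strand), had 36.7 CPM with HOCl, against 173 and 151 CPM, 4.42-fold lower. Foxp1, a forkhead factor of resting T cells (ENSMUSG00000030067, chr6:98925338-99522721, minus strand), had 138 CPM with HOCl, against 357 and 422 CPM, 2.83-fold lower. Both forkhead genes thus stood at a larger share of the untreated mean (22.7% for Foxo1 and 35.3% for Foxp1) than the other 7 members, which stood at 4.54% to 13.3%.

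How far the members stood apart depended on what they were set against. Outside mitochondrial counts, 8 of 9 were at least 2-fold lower, all but Foxp1, as were 10.7% of genes, and the medians were -2.56 for members and 0.21 for all genes. T cell identity genes (Cd3e, Cd8a, Lck and 11 others) were at least 2-fold lower in 14 of 14 cases, at 5.34% to 26.8% of the untreated mean, with a median of 17.0%, and the 191 T-type genes had a median of 14.8% (quartiles 10.5% and 23%). Set relative to the median of the T cell identity genes, 3 of 9 members were at least 2-fold lower (Ccr7, Il7r and S1pr1), as did 0.573% of genes, while Foxo1 and Foxp1 turned to log2 ratios of 0.39 and 1.02. On that scale Klf2 was at -0.59, Tcf7 at -1.25, Lef1 at -0.69 and Bach2 at -0.38. These ratios are to the mean of the untreated libraries, whereas the 2-fold rule needs both. Tcf7 met it against untreated replicate 1 only. Within the library, counts of Il7r were 1.11 times those of Cd8a with HOCl, against 3.39 and 4.32 times without, and counts of Foxp1 were 1.99 times those of Cd8a with HOCl, against 0.789 and 1.18 times without. Tcf7 stood at 1.91 times Lef1 with HOCl, against 3.989 and 1.959 times without, so that ratio was close to that of replicate 2.

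**Figure D2:**
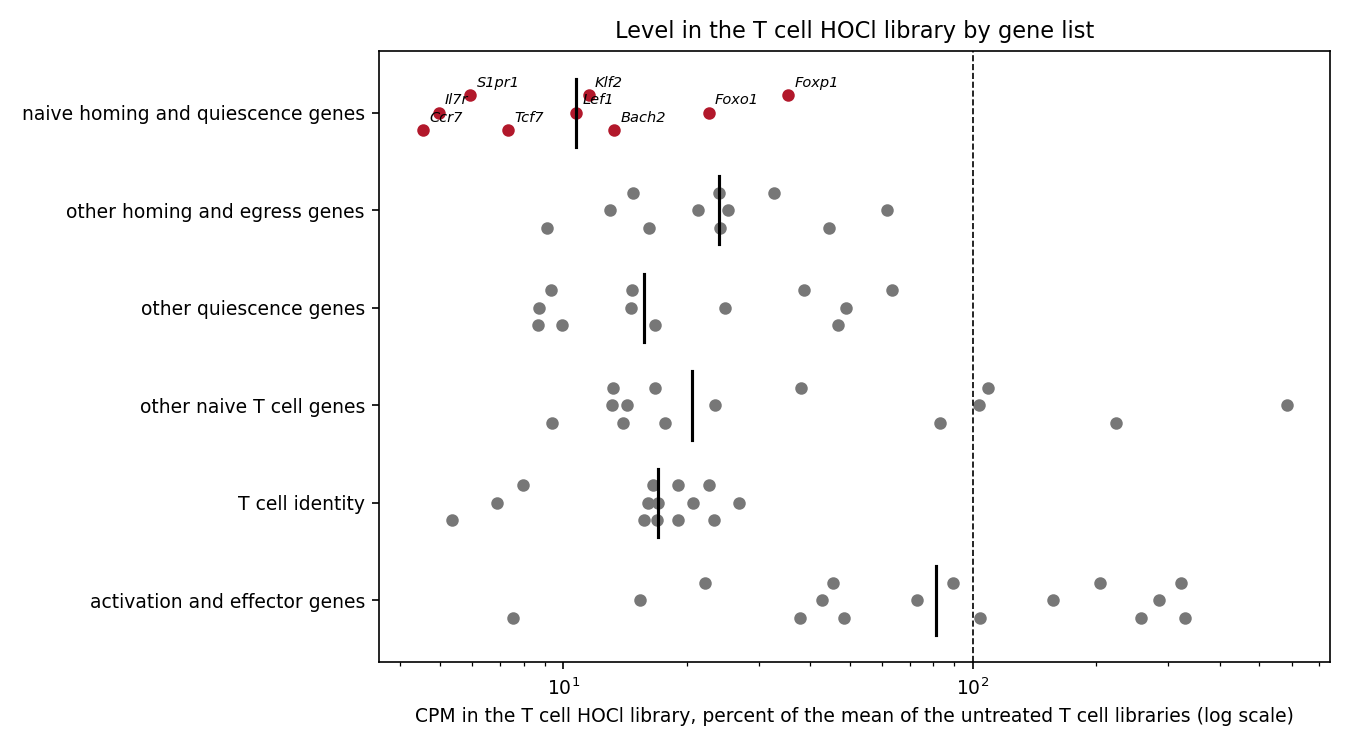
CPM in the T cell HOCl library as a percent of the mean of the 2 untreated T cell libraries (log axis), a point per gene with at least 1 CPM in both untreated libraries, by gene list, with a bar at each median and a dashed line at 100%. The members run from 4.54% (Ccr7) to 35.3% (Foxp1) and the T cell identity genes from 5.34% to 26.8%, and Foxo1 and Foxp1 lie above the median of the T cell identity genes.

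Since the T cell HOCl library also held melanocyte genes, each member's B16F10 level was set beside it. At the melanocyte share, untreated B16F10 levels came to 17.1 CPM of Foxp1, 12.4% of its level in that library, and to 3.63 CPM of Foxo1, 9.89% of its level. For the other 7 members this part was at most 3.63%. A wider set gave a larger share. It held 210 B16F10-type genes (at least 50 CPM in each untreated B16F10 library, at most 1 CPM in both untreated T cell libraries). Their median in the T cell HOCl library was 35.2% of their untreated B16F10 mean, against 27.2% for the melanocyte genes. At that share each part would be larger. The part at the melanocyte share was then subtracted, an alternative chosen after seeing the data. Foxp1 then stood at 30.9% and Foxo1 at 20.4% of the untreated mean. On that scale 9 of 9 members were at least 2-fold lower, as were 53.2% of the 11524 genes, against 23.7% without the subtraction.

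That library also gave counts to genes that were close to silent elsewhere. Of 4954 protein-coding genes of at least 1000 exon bases that were under 0.1 CPM in the other 8 libraries, 87.3% had a count there, with a median of 0.656 RPKM and a 95th percentile of 3.54 RPKM. Bach2, at 3.51 RPKM with HOCl and 26.4 RPKM on average without, lay at about that percentile. Foxo1 had 4.23 RPKM with HOCl, Lef1 7.93, Foxp1 10.0 and S1pr1 10.7 RPKM, and the highest were Klf2 at 46.9 and Tcf7 at 50.6 RPKM. The part of the mitochondrial counts, the melanocyte genes and the counts in near-silent genes in the members' lower levels was not tested.

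**Figure D3:**
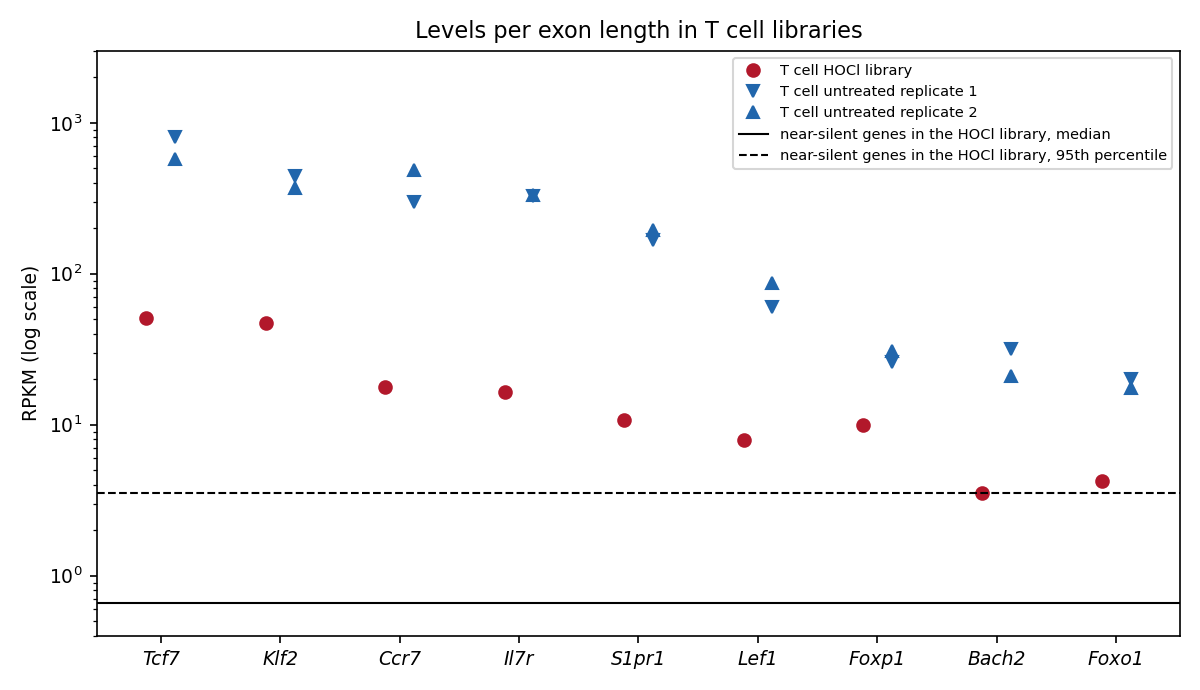
RPKM (log axis) of the 9 genes in the T cell HOCl library and in each untreated T cell library, with lines at the median and the 95th percentile of 4954 near-silent genes in the HOCl library. Bach2, at 3.51 RPKM, lies at the upper line, and Tcf7, at 50.6 RPKM, lies farthest above it.

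The neighbouring lists, chosen like the members with earlier results known, were read beside the shares over all genes, of which 23.7% were at least 2-fold lower and 14.7% higher (10.7% lower outside mitochondrial counts). Of 11 other homing and egress genes, 9 were at least 2-fold lower, 0 higher and 2 neither, with a median log2 ratio of -2.06. Dock2, a Rac activator needed for lymphocyte migration, had 64.7 CPM with HOCl, against 931 and 490 CPM without, and Coro1a, an actin regulator, had 252 CPM, against 1065 and 1031 CPM. Itgb7 and Ccr9 of gut homing did not pass, at 44.5% and 61.8% of the untreated mean. Of 12 other quiescence genes, 9 were lower and 3 neither (median -2.66). Among them Btg1, an antiproliferative gene, had 96.5 CPM with HOCl, against 758 and 1309 CPM, Cdkn1b, the p27 cell cycle inhibitor, had 112 CPM, against 738 and 799 CPM, and Slfn2, needed for T cell quiescence, had 45.7 CPM, against 328 and 723 CPM.

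Of 14 other naive T cell genes, 8 were at least 2-fold lower, 1 higher and 5 neither (median -2.28). The chromatin organiser Satb1 had 136 CPM with HOCl, against 808 and 1238 CPM without, and Ets1 had 201 CPM, against 1326 and 1736 CPM. The 1 higher gene was Igfbp4, at 61.0 CPM with HOCl, against 11.1 and 9.81 CPM without, and it averaged 170 CPM in untreated B16F10. Activation and effector genes were split, with 4 lower, 4 higher and 8 neither of 16, and a median of -0.30. Il2rb, the receptor chain shared by interleukin-2 and interleukin-15, had 22.5 CPM with HOCl, against 390 and 208 CPM. Cd44 was 1 of the higher genes, and it averaged 529 CPM in untreated B16F10.

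Lists of other cells were read in the same library. All 4 melanocyte genes with at least 1 CPM in both untreated T cell libraries were higher, led by Tyrp1 at 2506 CPM with HOCl, against 28.5 and 6.95 CPM. The summed melanocyte list was 6909 CPM with HOCl, against 104 and 26.0 CPM without, and no gene of it was at 0. Of 9 B cell genes, 4 were higher, 1 lower (Ighm) and 4 neither, with a summed list level of 517 CPM with HOCl, against 1310 to 2421 CPM. Ighm made up most of these sums, at 280 CPM with HOCl, against 1242 and 2332 CPM without, so the sums follow that gene. The next highest, Cd74, had 79.55 CPM with HOCl, against 37.85 and 50.38 CPM without. Of 3 NK cell genes 1 was higher, and of 3 myeloid genes 2, with summed levels of 27.4 and 138 CPM with HOCl, against 8.37 to 9.39 and 11.7 to 20.01 CPM without. Of the 3 highest endothelial genes, Pecam1 was lower, at 59.6 CPM with HOCl, against 159 and 136 CPM without. Cdh5 and Kdr were higher, at 13.2 and 10.5 CPM with HOCl and under 1 CPM without. Erythroid and platelet genes summed to 40.6 CPM with HOCl, against 15.7 to 20.3 CPM without. As given above, 87.3% of 4954 near-silent genes had a count in this library. The part of those counts in these lists, and of such cells in the members' levels, was not tested.

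The authors' deposited table for T cells gave log2 fold changes from -5.25 (Ccr7) to -2.31 (Foxp1) for the 9 members. The groups of that table are not named by treatment, so its sign was taken as deposited. In the authors' deposited table, as in the CPM ratios above, Ccr7, Il7r and S1pr1 had the 3 lowest values and Foxo1 and Foxp1 the 2 nearest to 0.

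B16F10 served as the background for these genes. All 9 members were higher in untreated T cells than in untreated B16F10 (edgeR's quasi-likelihood test, Benjamini-Hochberg adjustment over 18352 genes), a comparison in which 35.4% of genes were higher and 35.8% lower. Ccr7 averaged 777 ± 261 CPM in T cells (SD, n = 2) and 0.271 ± 0.0667 CPM in B16F10 (SD, n = 3), a log2 fold change of 11.71 ± 0.42 (SE, edgeR adjusted p = 1.14e-05). Lef1 differed by 11.31 ± 0.33, S1pr1 by 11.01 ± 0.51, Il7r by 10.94 ± 0.24, Klf2 by 8.94 ± 0.21, Tcf7 by 7.77 ± 0.25 and Bach2 by 6.05 ± 0.22 on the log2 scale. The forkhead genes were the least restricted. Foxo1 averaged 162 ± 15.95 CPM in T cells and 13.4 ± 0.899 CPM in B16F10, a log2 fold change of 3.84 ± 0.14. Foxp1 averaged 389 ± 46.4 CPM in T cells and 63.0 ± 3.30 CPM in B16F10, a log2 fold change of 2.88 ± 0.17 (edgeR adjusted p = 4.32e-05). In B16F10 the order per length was another: Foxp1 led at 4.58 RPKM, before Tcf7 at 3.73, Foxo1 at 1.54 and Klf2 at 0.976 RPKM, and Lef1 was last at 0.0345 RPKM, with overlap between neighbours seen for Ccr7 and S1pr1.

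With HOCl, Foxp1 and Foxo1 rose in B16F10 with all 6 libraries in the fit, and neither passed without HOCl replicate 3, the library with T-type genes at 0.749% of their T cell level (edgeR adjusted p = 0.0994 for Foxp1 and 0.168 for Foxo1). With each library left out in turn, Foxp1 passed in 4 of 6 fits and Foxo1 in 3 of 6. Foxp1 had 72.9, 71.5 and 86.3 CPM in the HOCl libraries, against 60.3, 62.1 and 66.7 CPM in the untreated ones, a log2 fold change of 0.26 ± 0.07 (SE, edgeR adjusted p = 0.0184). Foxo1 had 15.9, 15.3 and 19.1 CPM with HOCl, against 12.4, 14.2 and 13.5 CPM without, a log2 fold change of 0.30 ± 0.09 (edgeR adjusted p = 0.0318). In both, all HOCl libraries lay above all untreated libraries. This was 2 of 9 members up and 0 down (4 and 0 at an unadjusted edgeR p under 0.05, 3 and 0 by DESeq2) among 16082 genes, of which 14.7% were up and 13.5% down, a share of members near the background given 9 genes.

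Klf2 and Bach2 did not pass the main test, although their groups did not overlap, and the call of Klf2 changed with the settings: it passed by DESeq2 (adjusted p = 0.00865) and by edgeR with no filter on low counts (3.68e-05) or a filter of 1 CPM (0.043). Klf2 had 2.18, 2.53 and 6.49 CPM with HOCl, against 1.94, 1.57 and 1.90 CPM without, a log2 fold change of 1.02 ± 0.37 (edgeR adjusted p = 0.0656). Its level in HOCl replicate 3 was 2.75 times the mean of HOCl replicates 1 and 2. Without replicate 3 the log2 fold change of Klf2 was 0.36 (edgeR adjusted p = 0.258). Bach2 had 6.43, 5.06 and 6.86 CPM with HOCl, against 4.09, 4.93 and 4.97 CPM without, a log2 fold change of 0.37 ± 0.14 (edgeR adjusted p = 0.0661). Groups with every HOCl library above every untreated one were found for 4 of the 9 members and for 25.2% of genes. In the authors' deposited table Klf2 passed, with an adjusted p of 0.00878, as did Foxp1 (0.00445) and Foxo1 (0.0258), and Bach2 (0.0876) and Tcf7 (0.709) did not.

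For the receptors, Lef1 and Tcf7, the HOCl group mean in B16F10 rested on HOCl replicate 3. Ccr7 had 0.265, 0.247 and 6.35 CPM in the HOCl libraries, against 0.342, 0.210 and 0.262 CPM in the untreated ones. Il7r had 0.837, 0.742 and 12.5 CPM with HOCl, against 0.864, 0.945 and 0.981 CPM without. S1pr1 had 0.408, 0.342 and 4.50 CPM with HOCl, against 0.505, 0.126 and 0.283 CPM without. In all of them HOCl replicate 3 was high and replicates 1 and 2 lay near or within the untreated range. Lef1 had 0.571, 0.304 and 4.56 CPM with HOCl, against 0.310, 0.273 and 0.327 CPM without, and Tcf7 had 8.92, 7.42 and 19.5 CPM with HOCl, against 8.80, 9.68 and 10.9 CPM without. The log2 fold changes ran from 0.26 ± 0.38 (Tcf7) to 3.02 ± 1.59 (Ccr7), and the edgeR adjusted p from 0.13 (Lef1) to 0.668 (Tcf7).

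**Figure D4:**
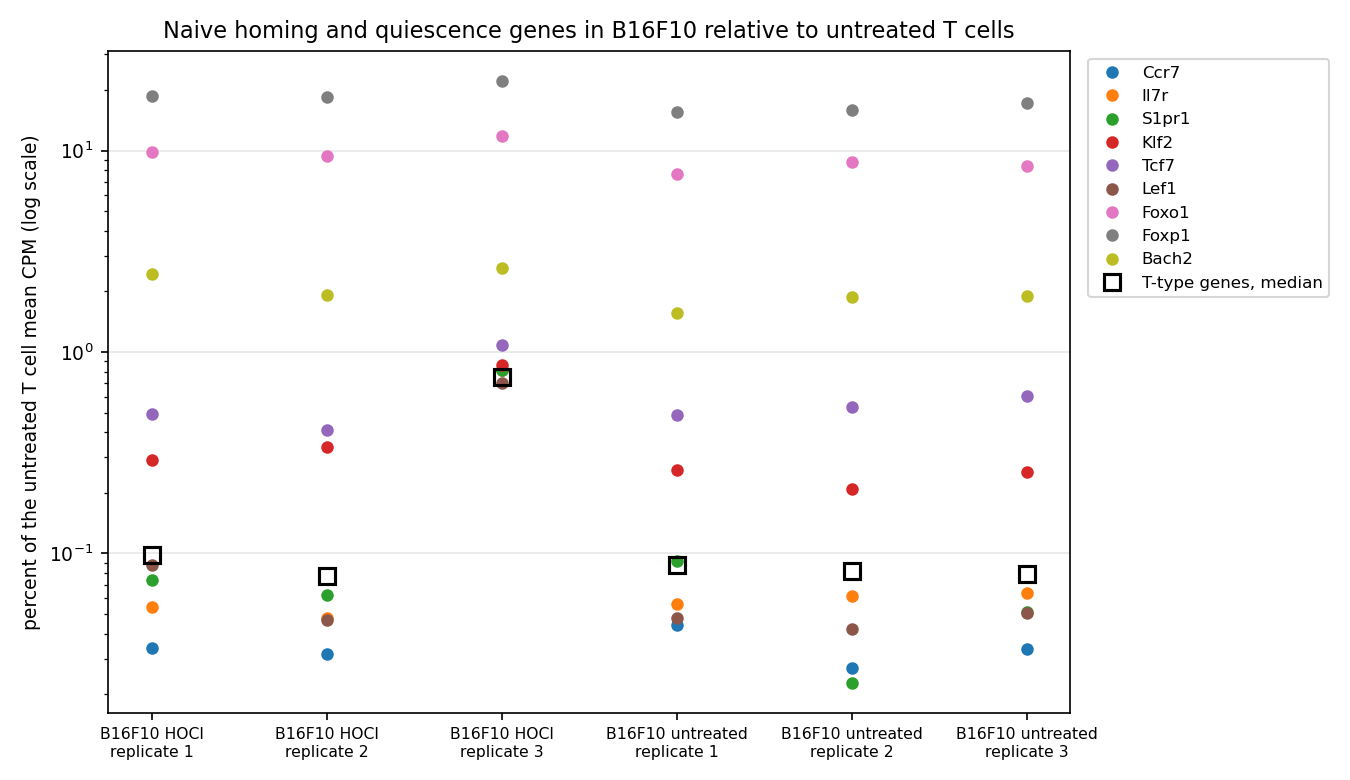
CPM of the 9 genes in each B16F10 library as a percent of the untreated T cell mean (log axis), with open squares at the median of 191 T-type genes. In HOCl replicate 3 Ccr7, Il7r, S1pr1, Klf2 and Lef1 lie at 0.703% to 0.864%, around the T-type median of 0.749%. Foxo1, Foxp1 and Bach2 lie above 0.749% in every library. Together with Tcf7 and Klf2, they also lie above each library's own T-type median.

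In HOCl replicate 3, 5 of the 9 members lay within the quartiles of the T-type genes and 4 above them. Ccr7 stood at 0.817% of its untreated T cell level, Il7r at 0.811%, S1pr1 at 0.816%, Klf2 at 0.864% and Lef1 at 0.703%, beside the T-type median of 0.749% (quartiles 0.603% and 0.961%). Tcf7 stood at 1.08%, Bach2 at 2.61%, Foxo1 at 11.8% and Foxp1 at 22.2%. The excess of Il7r over the mean of the other HOCl libraries was 11.7 CPM, and 0.749% of its T cell level came to 11.6 CPM. For Ccr7 these were 6.09 and 5.82 CPM and for S1pr1 4.12 and 4.13 CPM. For Foxp1 the excess was 14.1 CPM and the T cell level at that share 2.92 CPM, and for Foxo1 3.44 and 1.21 CPM. The excess was below that level for Klf2 (4.13 and 5.63 CPM), Tcf7 (11.35 and 13.55 CPM), Lef1 (4.12 and 4.86 CPM) and Bach2 (1.11 and 1.965 CPM). T cell identity genes summed to 7.82 to 51.5 CPM over the HOCl libraries, against 7.68 to 7.91 CPM in the untreated ones. The part of T cell RNA in the members' values in B16F10 was not tested beyond these levels.

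Without HOCl replicate 3, 0 of 9 members passed by edgeR (Foxp1 up and Tcf7 down at an unadjusted p under 0.05), while 9.73% of 16490 genes were up. Foxp1 then had a log2 fold change of 0.17 and Foxo1 of 0.20, both still positive, Klf2 one of 0.36 (edgeR adjusted p = 0.258) and Bach2 one of 0.28 (0.25). Ccr7, Il7r and Tcf7 changed sign, to -0.12, -0.26 and -0.29. Foxo1 also missed the threshold without HOCl replicate 1 (edgeR adjusted p = 0.0554) or untreated replicate 3 (0.0629), and Foxp1 without untreated replicate 2 (0.0512). Leaving out HOCl replicate 2 gave 5 members up, with Klf2, Bach2 and Lef1 added, while 1693 of 16506 genes were up. That fit kept HOCl replicate 3, where Lef1 had 4.56 CPM, against 0.571 CPM in HOCl replicate 1.

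**Figure D5:**
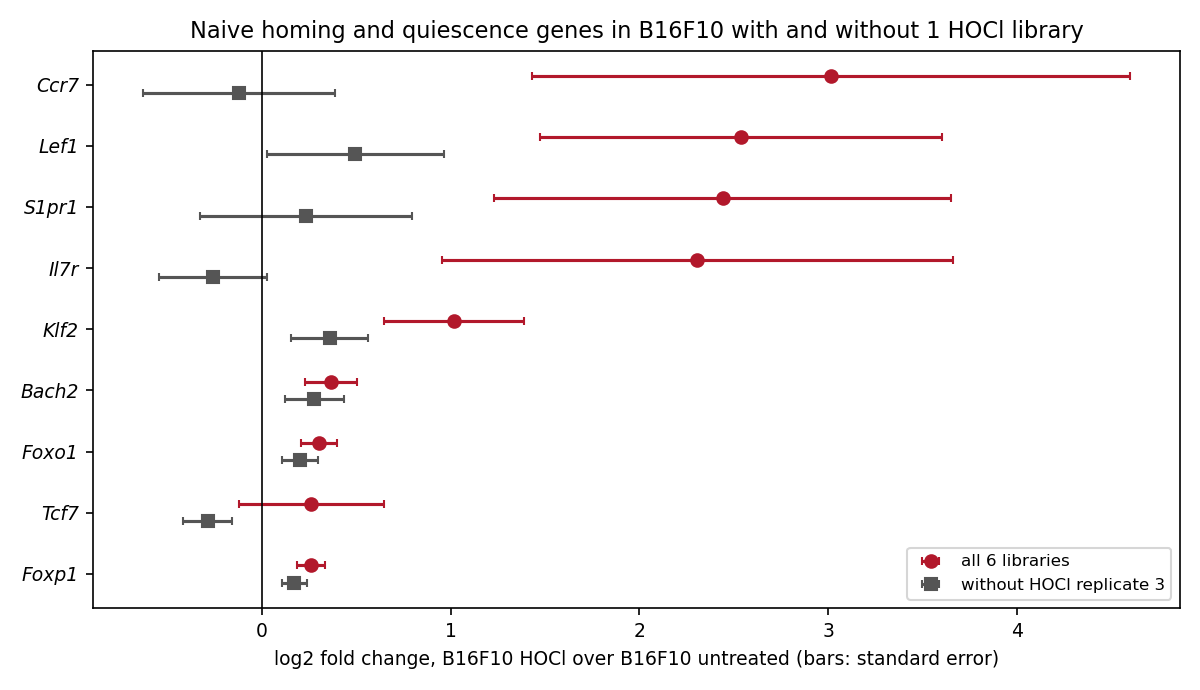
Log2 fold change of the 9 genes in B16F10 HOCl over B16F10 untreated with its standard error, from all 6 libraries and without HOCl replicate 3. Ccr7 lies at 3.02 with all libraries and at -0.12 without that one, and Foxp1 at 0.26 and 0.17.

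Other lists of the programme were read in B16F10 beside the shares over all genes, 14.7% up and 13.5% down. Of 12 other quiescence genes tested, 8 rose and 0 fell with HOCl by edgeR, as many as at an unadjusted p under 0.05 and by DESeq2 (median log2 fold change 0.32, against -0.01 over all genes), and without HOCl replicate 3, 6 rose and 1 (Slfn2) fell, where 9.73% of all genes were up. With all 9 libraries in 1 fit, 0 of the 12 passed (4 up at an unadjusted edgeR p under 0.05). That fit called only 11 genes up and 26 down of 34290. Cdkn1b averaged 200.4 ± 6.43 CPM with HOCl and 156 ± 1.19 CPM without (SD, n = 3 each), a log2 fold change of 0.34 ± 0.04 (edgeR adjusted p = 0.000226). Btg1 averaged 46.4 ± 4.83 CPM with HOCl and 33.8 ± 1.32 CPM without, a log2 fold change of 0.43 ± 0.07 (edgeR adjusted p = 0.0011). Both passed also without HOCl replicate 3. Sesn3, a stress-induced inhibitor of mTORC1 signalling, averaged 109.8 ± 4.70 CPM with HOCl and 92.2 ± 10.9 CPM without, a log2 fold change of 0.23 ± 0.08 (edgeR adjusted p = 0.0426), and its call was lost without that library (0.146). Of 9 other homing genes tested, 0 passed in either direction by edgeR (2 up and 1 down at an unadjusted p under 0.05, 1 up, S1pr4, by DESeq2), with a median of 1.16 that turned to -0.15 without HOCl replicate 3. Of 9 other naive T cell genes 1 rose (Runx1, 0.42 ± 0.10) and 3 fell (Id3, Igfbp4 and Actn1). Id3, an inhibitor of E proteins, fell by 1.41 on the log2 scale (edgeR adjusted p = 0.00035). Of 10 activation and effector genes 1 rose (Irf4) and 2 fell (Id2 and Myc), shares near those over all genes.

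Across all 9 libraries, each member's profile was set beside that of 10359 other protein-coding genes, by the Euclidean distance of centred log2(CPM + 1) values, as a description. The libraries share cell type, and distances are small for any gene with a like T cell to B16F10 ratio. Pde3b was among the 2 nearest genes of both Ccr7 (0.52) and Il7r (0.83). S1pr1 was nearest to Fam107b (0.44) and Ipcef1 (0.61), Klf2 to B4galnt1 (0.36) and Gimap8 (0.52), Tcf7 to Slc6a19 (0.51) and St8sia1 (0.52), and Lef1 to Ptpn22 (0.44) and Cytip (0.60). Foxo1 was nearest to Rel (0.35) and Zbtb4 (0.44), Foxp1 to Sik1 (0.32) and Taf8 (0.34), and Bach2 to Trp53i11 (0.49) and Zrsr1 (0.50). Among the members themselves, Ccr7 and S1pr1 were closest (0.82) and Il7r and Foxp1 farthest apart (8.83).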

How the data were processed

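RNA was measured in 9 libraries, and groups were taken from the sample titles. The deposited files hold raw counts of reads per gene, which the authors did not normalise. DESeq2 1.22.2, featureCounts 1.6.0, STAR 2.7.1a and FastQC 0.11.8 are named as tools, and mm10 as the genome build, per the submitters' processing notes. Strandedness, annotation version and treatment of multi-mapping reads were not given in the sources used here, so reads of overlapping or antisense genes cannot be told apart. The authors' deposited result tables hold log2 fold changes and adjusted p-values, and those of the members were copied and not recomputed.

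The members and gene lists were chosen with earlier results of these data known. Counts were turned into CPM by library total, and RPKM used exon lengths of GENCODE M21. B16F10 HOCl against untreated and untreated T cells against untreated B16F10 were tested with edgeR 4.0.16 (R 4.3.3): filterByExpr, TMM, quasi-likelihood test, Benjamini-Hochberg adjustment over all genes tested, threshold 0.05. For the single T cell HOCl library, log2 ratios used a pseudocount of 0.5 CPM, and a gene counted as lower or higher where it was at least 2-fold from both untreated libraries, among genes with at least 1 CPM in both. The scripts were tested on simulated data. Of other lists, up to 3 genes per direction of highest mean CPM in untreated T cells were to be named (for lists of other cells, the 3 highest in the library described), and the 2 nearest profiles per member. Some genes that the rule names are not reported here. Cd8a, Cd4 and Cd44 are named as label checks, and Slfn2 and S1pr4 in B16F10 were named after their values were seen.

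A floor of 3 counts was 0.234 CPM in the T cell HOCl library and 0.0489 to 0.0654 CPM in the others; floors cover counting error only. No pair of libraries of a group agreed within counting noise (chi-square per degree of freedom 3.91 to 25.9 in B16F10 and 447 between the untreated T cell libraries). Alternatives were TMM, library totals and DESeq2's size factors, other filters and pseudocounts, DESeq2 1.42.0, a replicate block, all 9 libraries in 1 fit, counts outside mitochondrial genes, T cell identity genes as the scale, and each replicate left out.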

Additional observations from a re-analysis of the deposited data

Results flagged for a closer look

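The 4 members below stood out because HOCl libraries lay on opposite sides of the untreated ones in T cells and B16F10. Each HOCl library of B16F10 lay above all untreated B16F10 libraries, while the single T cell HOCl library lay below both untreated T cell libraries. Over all genes tested in B16F10, 25.2% had every HOCl library above every untreated one. Of genes with at least 1 CPM in both untreated T cell libraries, 23.7% were at least 2-fold lower with HOCl. The share with both was not counted. In B16F10 Klf2 and Bach2 did not pass the main test (edgeR adjusted p = 0.0656 and 0.0661). Without HOCl replicate 3, 0 of 9 members passed. The HOCl log2 ratio in T cells minus that in B16F10, on log2(CPM + 0.5), was -3.99 for Klf2, -3.25 for Bach2, -2.44 for Foxo1 and -1.78 for Foxp1. The difference was not tested, since the T cell HOCl group has 1 library. That library held melanocyte genes at a median 27.2% of the untreated B16F10 level, and B16F10 HOCl replicate 3 held T-type genes at 0.749% of the untreated T cell level. No group had 4 or more samples, so none was examined for a single distant sample in that way.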

How the results depend on the processing

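All 9 members stayed higher in untreated T cells than in untreated B16F10 in every alternative run; without TMM the median of all genes shifted to -0.22, and the largest edgeR adjusted p with a library left out was 0.002 (Foxp1). In B16F10 the 2 members up became 4 with a replicate block (Klf2 and Bach2 added, edgeR adjusted p = 0.0173 and 0.0438). With the block 2726 of 16082 genes were up. With all 9 libraries in 1 fit 0 members were up, and that fit called 11 genes up and 26 down. Leaving out each replicate gave 0 to 5 members up, with 1605 to 2819 genes up and 1410 to 2634 down. Foxo1 and Foxp1 each lost their call with some library left out: Foxp1 without untreated replicate 2 (adjusted p = 0.0512), Foxo1 without untreated replicate 3 (0.0629) or HOCl replicate 1 (0.0554), and both without HOCl replicate 3. Klf2 was also called with no filter, with a filter of 1 CPM and by DESeq2 (3 members up in each). Genes up in these were 2508 of 33470, 2464 of 12638 and 2397 of 33470, and the 1 CPM filter left 5 members tested. Over the replicates left out, the log2 fold change ran from -0.12 to 3.55 for Ccr7, -0.26 to 2.82 for Il7r and -0.29 to 0.51 for Tcf7, the lowest without HOCl replicate 3. The replicate numbers were not shown to pair the libraries: same-numbered B16F10 deviations correlated at 0.171, -0.0673 and 0.145. With the block, T cells against B16F10 gave 4763 genes up and 5320 down, with 9 members up.

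In the T cell HOCl library the members' median log2 ratio was -2.56 outside mitochondrial counts, -4.13 with TMM and -0.69 relative to T cell identity genes, where 3 members were at least 2-fold lower and Foxo1 and Foxp1 turned to 0.39 and 1.02. Leaving out an untreated replicate gave -3.45 to -3.23. The split of all genes moved with the scale: 1695 higher and 2736 lower by CPM, 2785 and 1238 outside mitochondrial counts, 894 and 5674 with TMM, 8593 and 66 relative to identity genes, and 1011 and 6130 with the B16F10 part subtracted. The median of all genes stood at -0.42, 0.21, -1.28, 2.10 and -1.41 on these scales. The T cell HOCl group, with 1 library of 12847418 counts, gives no error for the HOCl level in T cells.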
